A study of Mus musculus with 16 samples.

Results

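The nuclear genes for the subunits of the mitochondrial respiratory chain were followed across donor T cells from mice that had received a haematopoietic stem cell transplant. Members were taken by symbol: Nduf followed by a, b, c, s or v and a number (complex I), Sdha to Sdhd (complex II), Uqcr genes and Cyc1 (complex III), Cycs (cytochrome c) and Cox4 to Cox8 genes (complex IV), without the Ndufaf assembly factors. The rule found 69 genes, measured by 90 probes, among 20972 genes with a named probe. Each gene was read from the probe whose mean level over the 16 arrays was highest. Of the 69 genes, 35 belong to complex I, 4 to complex II, 9 to complex III and 20 to complex IV, where Ndufa4 and its paralogue Ndufa4l2 were counted, and the last encodes cytochrome c.

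The 16 one-colour Agilent arrays, each hybridised with amplified RNA of sorted cells from female mice of C57BL/6 background, fall into 6 groups by T cell subset, organ and kind of transplant. After allogeneic transplantation, cells came from the ovary (2 CD4 and 4 CD8 arrays) and from the spleen (2 CD4 and 3 CD8 arrays). After syngeneic transplantation, cells came from the spleen alone (2 CD4 and 3 CD8 arrays). The recipient strain, conditioning, age and time after transplantation are not given in the sources used here, and no label says that replicates came from separate mice, so p-values measure the spread between these samples, which may be technical.

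The respiratory chain passes electrons from NADH (complex I) or succinate (complex II) through coenzyme Q, complex III and cytochrome c to oxygen at complex IV, and 3 of the 4 complexes, complex II being the exception, pump protons for ATP synthase. Complexes I, III and IV combine nuclear and mitochondrially encoded subunits, whereas every subunit of complex II is nuclear. Naive T cells rest mainly on oxidative metabolism, and activation brings mitochondrial growth together with a large rise in glycolysis.

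A level here is the log2 signal minus the log2 of the array's 75th percentile, so a level of 0 is that percentile, and a difference of 1 is a doubling. All 10 T cell markers were well above background, the scanner's own test, on every array. The summed level of Cd8a and Cd8b1, on a linear scale relative to the 75th percentile, was 84.95 to 141.9 on CD8 arrays and 0.177 to 1.17 on CD4 arrays. Array brightness differed with subset: the 75th percentile was 67.6 to 141 scanner units on the 4 allogeneic CD4 arrays and 156 to 450 on the other 12. Arrays lay on 2 slides, each of which held all 6 groups, and no spot was saturated. Of the 69 members, 65 passed that test on all arrays of 1 or more groups and were analysed further, and 62 of these passed it on all 16 arrays. Cox7b2, Cox8b, Cox8c and Ndufa4l2 were not well above background on any array.

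Patches of dark spots that the scanner had not marked lay on 2 arrays above all. Of the spots on replicate 1 of allogeneic splenic CD4 cells, 7.47% lay in such patches, as did 3.09% on replicate 1 of allogeneic splenic CD8 cells, against at most 0.907% on any other array. They were found after the data had been seen, from the median deviation of a spot's neighbours. Inside them lay 10 member spots, of which the scanner's outlier flags had already removed 4. The other 6 were kept in the values below. On replicate 1 of allogeneic splenic CD4 cells, Ndufc2 read -3.13 against a median of 5.14 over the 16 arrays, Sdhd -3.52 against 4.34, Cox6c 0.08 against 6.87, Ndufb7 0.11 against 6.50 and Cox7c 4.96 against 5.58. Ndufa7 read 3.21 against 5.42 on replicate 1 of allogeneic splenic CD8 cells. Named results that rest on these 6 spots are therefore given with and without the dark patches, or with the levels of the arrays compared.

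**Figure D1:**
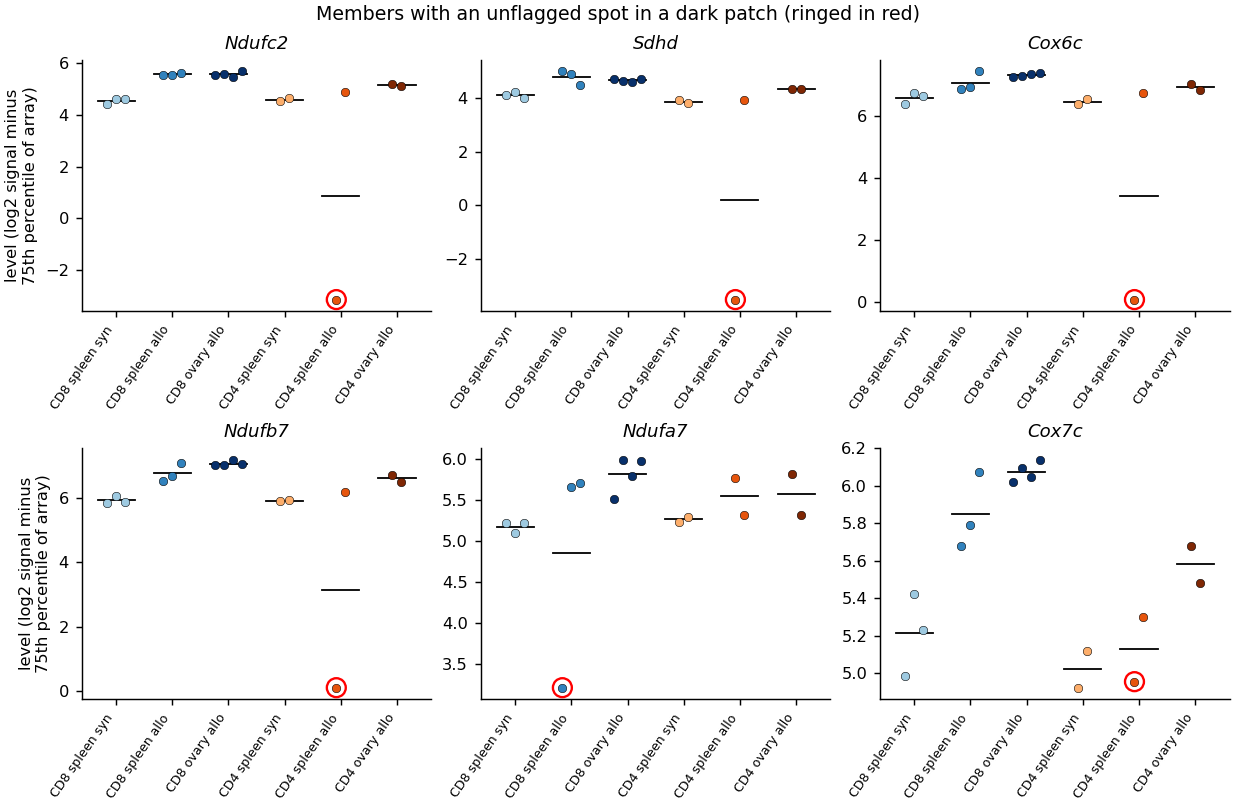
Level (log2 signal minus the array's 75th percentile) of the 6 members with an unflagged spot in a dark patch, on every array of the 6 groups, with bars at group means and the affected spot ringed. Ndufc2, Sdhd, Cox6c and Ndufb7 are 6.40 to 8.27 below their 16-array median at the ringed spot, Ndufa7 is 2.21 below and Cox7c is 0.62 below.

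Over the 65 members, the median deviation from the 16-array mean was higher on every allogeneic than on every syngeneic CD8 array, while the ovarian and the allogeneic splenic CD8 arrays overlapped. It was 0.29 to 0.39 on the 4 ovarian CD8 arrays, 0.18 to 0.29 on the 3 allogeneic splenic CD8 arrays and -0.24 to -0.13 on the 3 syngeneic splenic CD8 arrays. The CD4 arrays were at -0.28 and -0.40 (syngeneic spleen), 0.01 and -0.48 (allogeneic spleen), and 0.01 and -0.18 (ovary). The lowest array of all was the dimmest, replicate 2 of allogeneic splenic CD4 cells.

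**Figure D2:**
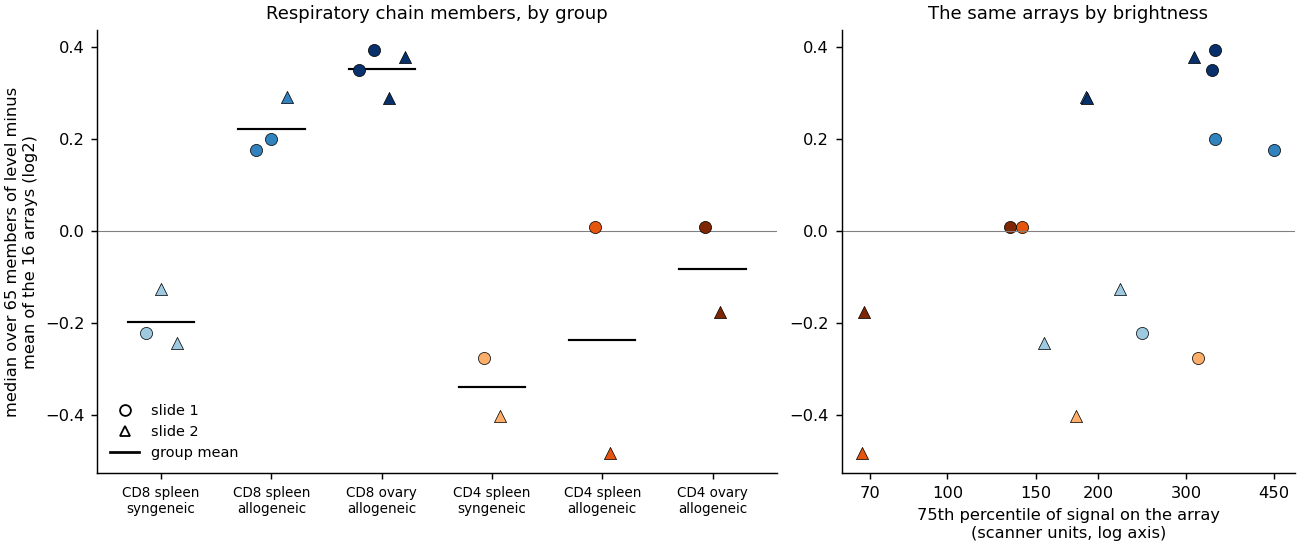
Left, median over the 65 tested members of the level minus its mean over 16 arrays, for each array by group, with the group mean as a bar and the slide as the symbol. Right, the same medians against array brightness on a log axis. The 7 allogeneic CD8 arrays lie at 0.18 or above, while the 2 dimmest arrays, both allogeneic CD4, lie at -0.18 and -0.48.

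Splenic CD8 cells after allogeneic as against syngeneic transplantation had the most members called of the comparisons made here. The ovarian subset comparison given below had fewer calls but more members with a positive difference. Of the 65 tested members, 28 rose and 2 fell at an adjusted p under 0.05 in limma, with Benjamini-Hochberg adjustment over 22835 features, against 18.8% of all features called higher and 19.6% called lower. The difference was positive for 59 members (90.8%) and for 42.5% of all features, with medians of 0.46 and -0.16. The rises were modest, from 0.37 for Uqcrc2 to 1.09 for Cox7a1, or 1.29-fold to 2.13-fold. Arrays of the 2 groups did not overlap for 44 members in the upward direction (24.2% of all features) and for 3 in the downward direction (29.3%).

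In complex I, which oxidises NADH, 14 of 35 members rose and none fell. Among the 7 core subunits, which carry the catalytic cofactors and have bacterial counterparts, Ndufs8 and Ndufv2 were among those that rose. The flavin-binding Ndufv1 differed by 0.23 ± 0.20 (SE, adjusted p = 0.388) and Ndufs1 by 0.19 ± 0.16 (adjusted p = 0.356). Of the 28 accessory subunits 11 rose, among them Ndufs4, a late-joining subunit whose loss causes Leigh syndrome, by 0.72 ± 0.13 (adjusted p = 0.00075) and Ndufa11 by 1.06 ± 0.23 (adjusted p = 0.00346).

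Ndufb8, an accessory subunit of the membrane arm whose protein is widely used as a marker of assembled complex I, had the smallest p of the members. Its level was 5.80, 5.84 and 5.93 on the allogeneic CD8 arrays and 5.02, 4.94 and 4.98 on the syngeneic ones. All 3 allogeneic values lay above all 3 syngeneic values, and the difference was 0.88 ± 0.12 (SE, adjusted p = 8.4e-05), or 1.84-fold. Ndufs8, an iron-sulphur core subunit, stood at 3.18, 3.24 and 3.05 against 2.48, 2.08 and 2.23, again without overlap (0.89 ± 0.16, adjusted p = 0.000859).

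In complex II, which is also succinate dehydrogenase of the citric acid cycle, only the iron-sulphur subunit Sdhb passed the test. Its levels were 7.44, 6.92 and 7.03 on allogeneic CD8 arrays and 6.25, 6.28 and 6.19 on syngeneic ones, a difference of 0.89 ± 0.16 (adjusted p = 0.000876). Replicate 1 was the highest of the allogeneic arrays, and no allogeneic value fell within the syngeneic range. The flavoprotein Sdha differed by 0.23 ± 0.17 (adjusted p = 0.302). With the dark patches left out, the membrane anchor Sdhd also passed (0.68 ± 0.14, adjusted p = 0.00271).

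In complex III, 3 of 9 members rose: the Rieske iron-sulphur protein Uqcrfs1 (0.48 ± 0.15, adjusted p = 0.0231), the core protein Uqcrc2 and the small subunit Uqcr10. Uqcrc1 (0.59 ± 0.23, adjusted p = 0.057) and the cytochrome c1 gene Cyc1 (0.46 ± 0.23, adjusted p = 0.13) did not pass. Cycs encodes cytochrome c, the mobile carrier between complexes III and IV, which also triggers the apoptosome when it leaks into the cytosol. Its level was 5.72, 5.74 and 5.89 on allogeneic and 4.75, 4.87 and 4.93 on syngeneic CD8 arrays. The groups did not overlap, with a difference of 0.94 ± 0.14 (adjusted p = 0.000215), or 1.92-fold. A further probe for Cycs gave 0.39 with an unadjusted p of 0.113.

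Complex IV held both directions. Of its 16 tested members 9 rose, and the only 2 members that fell in any complex in this comparison, Cox7a2l and Cox4i2, also belong here. Cox5b, a matrix-side subunit, read 5.52, 5.61 and 5.88 against 4.65, 4.78 and 4.77 (0.94 ± 0.14, adjusted p = 0.000226). Cox5a, which sits beside it, rose by 0.68 ± 0.13 (adjusted p = 0.00166), and Cox6b1, Cox7a2, Cox7b, Cox7c, Cox8a and Ndufa4 rose as well. The main isoforms Cox4i1 (0.17 ± 0.16, adjusted p = 0.418) and Cox6a1 (0.15 ± 0.21, adjusted p = 0.585) did not pass.

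The Cox7a family split. Cox7a1, best known as the heart and muscle isoform, stood at 0.33, 0.50 and 0.73 on allogeneic CD8 arrays and at -0.75, -0.44 and -0.52 on syngeneic ones (1.09 ± 0.17, adjusted p = 0.000366). Cox7a2, the widely expressed isoform, rose by 0.75 ± 0.15 (adjusted p = 0.00214). Cox7a2l, also called SCAF1, is best known as a factor that joins complexes III and IV into supercomplexes. Whether its product does so in mice of this strain background was not tested. The level of Cox7a2l went the other way: 7.28, 7.36 and 7.38 on allogeneic arrays against 8.25, 8.34 and 8.32 on syngeneic ones. The fall was 0.96 ± 0.16 on the log2 scale (adjusted p = 0.000592), or 1.95-fold, and the 2 further probes for this gene gave -0.73 and -0.93. Cox4i2, an oxygen-regulated paralogue of Cox4i1 best known from lung, read -1.71, -1.57 and -1.20 against -0.92, -0.78 and -0.45, a fall of 0.78 ± 0.18 (adjusted p = 0.00545), and here too the groups did not overlap.

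**Figure D3:**
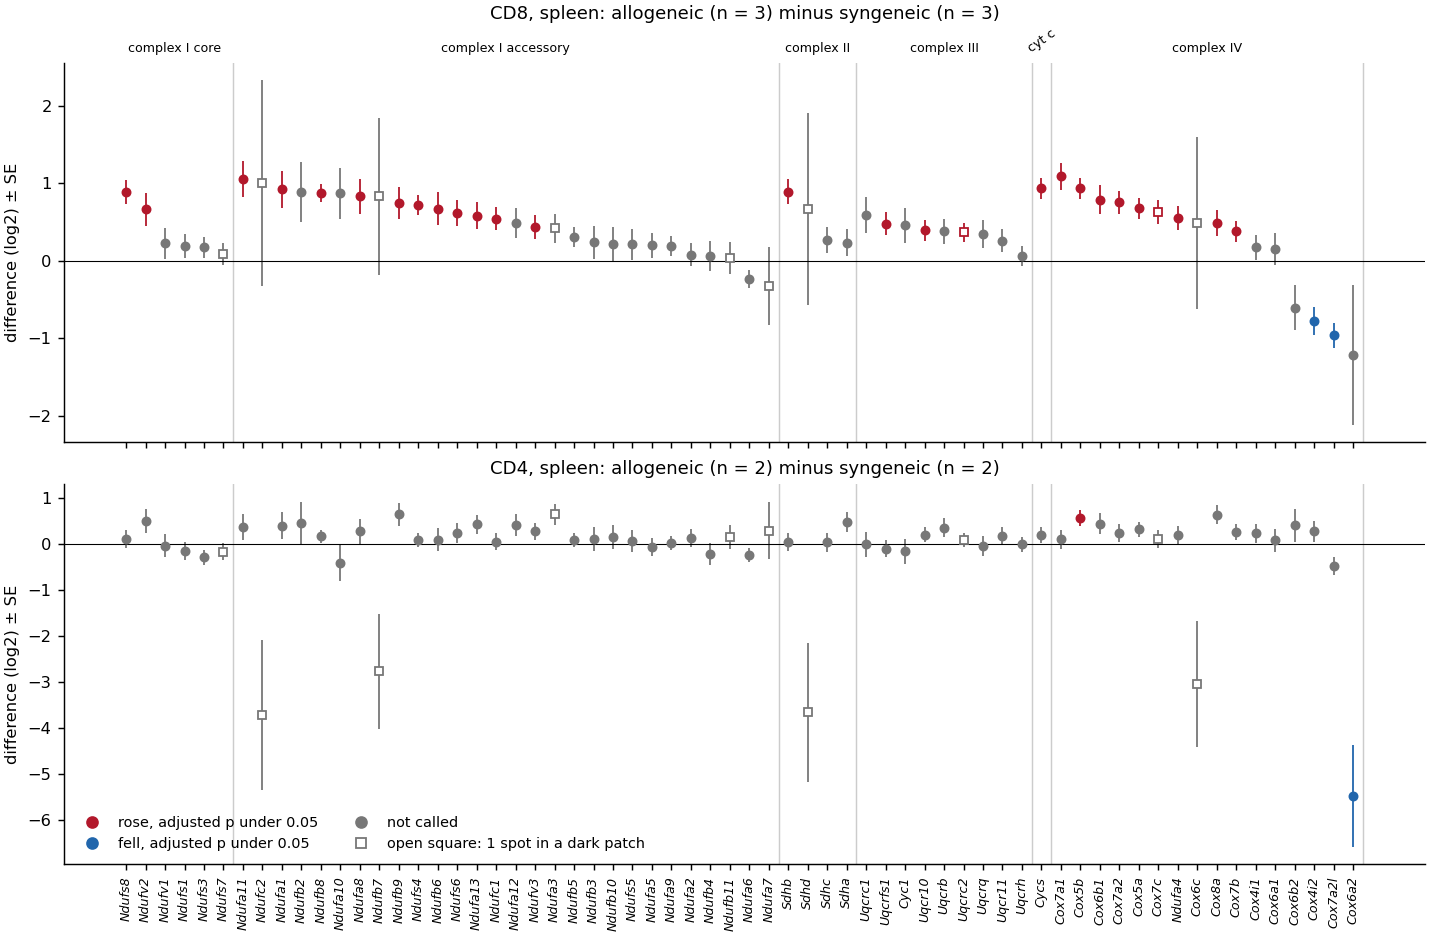
Allogeneic minus syngeneic difference in log2 level, with its SE, for 64 of the 65 tested members in splenic CD8 cells (top) and CD4 cells (bottom), ordered by complex; red and blue mark calls at an adjusted p under 0.05 and open squares mark members with a spot in a dark patch. Of the members plotted, 27 rose and 2 fell in CD8 cells, and 1 rose and 1 fell in CD4 cells.

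Leaving the dark patches out of the fit gave 33 rises and the same count of 2 falls in CD8 spleen, with Ndufc2 (1.01 ± 0.11, adjusted p = 3.2e-05), Ndufb7, Sdhd, Cox6c and Ndufa10 among those that passed. With slide as a block 30 rose and 2 fell, on slide 1 alone 23 rose and 3 fell, and on slide 2 alone, with 1 allogeneic and 2 syngeneic CD8 arrays, none was called and 26 had an unadjusted p under 0.05.

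Other gene lists of mitochondrial energy metabolism differed in the share that rose, which over all features was 18.8%. Of 18 ATP synthase genes, 9 rose and none fell (median 0.46), with Atp5pb, a stalk subunit, at 0.68 ± 0.12 and the inhibitor gene Atpif1 at 1.06 ± 0.21. Of 29 assembly factors for complexes II to IV, 12 rose and 2 fell, led by Cmc2 (1.504 ± 0.128) and Cmc1 (1.11 ± 0.12). Of 15 for complex I, 3 rose and 2 fell (median -0.01), a share of rises near that of all features, with Ndufaf2 at 1.04 ± 0.15 and Ndufaf4 at -0.53 ± 0.15. Of 16 pyruvate dehydrogenase and citric acid cycle genes 7 rose, Idh3a most (1.75 ± 0.17). Of 12 coenzyme Q synthesis genes 3 rose, 25% and so also near the share of all features, Coq4 with the smallest p (0.85 ± 0.15).

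More regulators of mitochondrial biogenesis fell than rose, where 19.6% of all features were called lower and 18.8% higher. Of 16 such genes, 1 rose (Tfb1m, 0.64 ± 0.15) and 5 fell, among them the coactivators Ppargc1b (-1.76 ± 0.15, adjusted p = 2.71e-06) and Pprc1 (-1.38 ± 0.19) and the mitochondrial helicase Twnk. Among 8 other genes whose products feed electrons to coenzyme Q, Etfb and Gpd2 rose by 1.86 each, while Sqor, the sulphide oxidase, fell by 2.52. Of 11 tested hypoxia-response genes 1 rose and 4 fell, Pdk1, a kinase that switches off pyruvate dehydrogenase, by 2.47. Of 7 antioxidant and uncoupling genes 3 rose, Prdx5, Ucp2 and Txnrd2. None of 13 mitochondrially encoded subunits had a named probe, so these are not analysed here.

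Cell division genes moved far more than the subunits. Of 15 proliferation genes 14 rose, with a median difference of 3.84, and their summed linear level was 387.7 to 477.5 on the allogeneic and 54.8 to 64.5 on the syngeneic splenic CD8 arrays. The 8 B cell markers went the other way, with a summed level of 3.69 to 5.69 on allogeneic and 15.3 to 24.4 on syngeneic arrays. Their part in the respiratory chain differences was not tested, and in such bulk samples fewer cells of a type and less RNA per cell cannot be told apart.

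**Figure D4:**
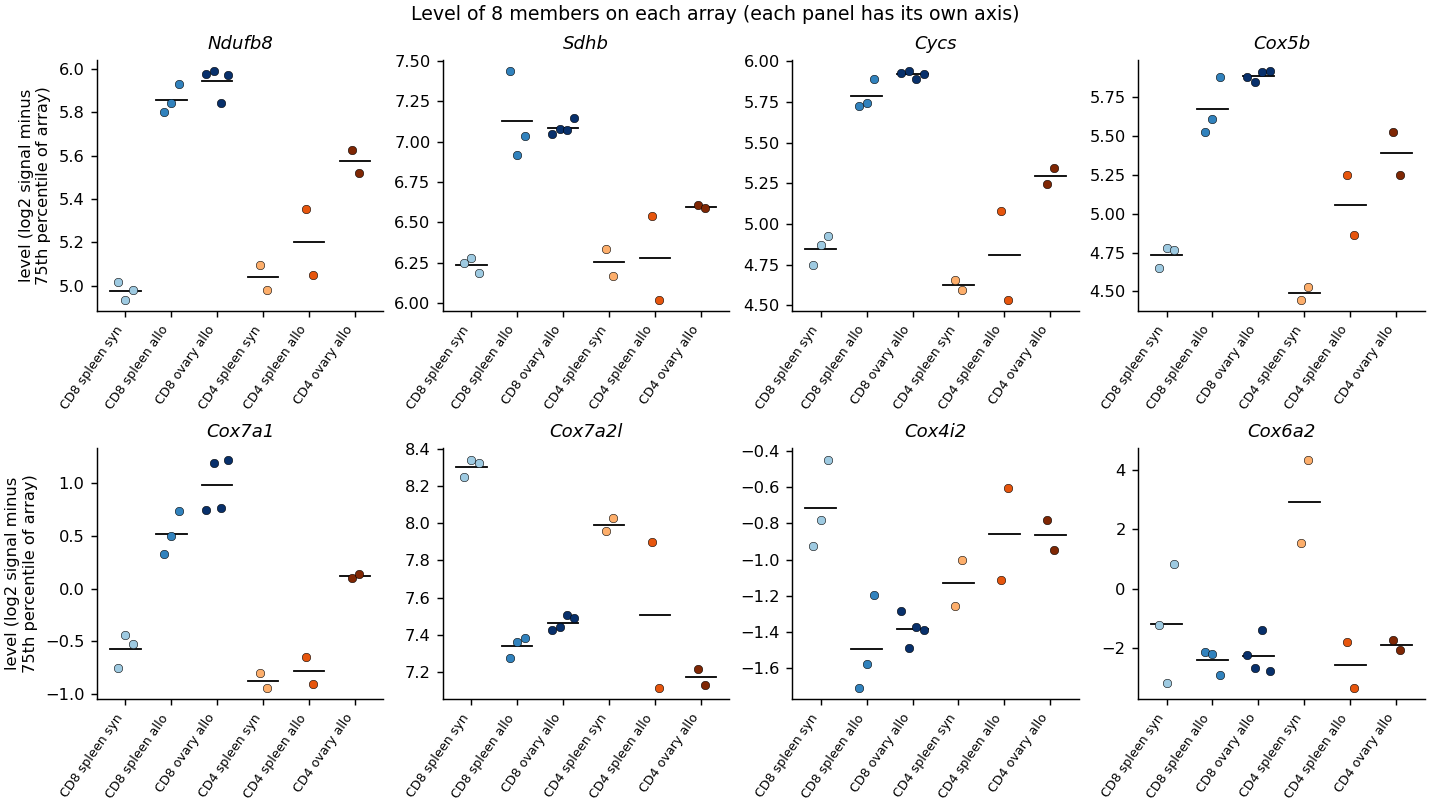
Level (log2 signal minus the array's 75th percentile) of 8 members on each array by group, with bars at group means and a separate axis for each gene. Ndufb8, Sdhb, Cycs, Cox5b and Cox7a1 are higher on every allogeneic than on every syngeneic splenic CD8 array, Cox7a2l and Cox4i2 are lower, and Cox6a2 is highest on the 2 syngeneic CD4 arrays.

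The stretch of 250 bases before the annotated start is shown for 4 genes whose transplant difference was larger in CD8 than in CD4 cells and for Cox7a2l, which fell in CD8 cells. Sequences are from RefSeq, build GRCm38.p6, on the gene's own strand, and capitals mark the letters GCATGCGC, the middle of the site of nuclear respiratory factor NRF1.
Ndufb8 (chr19:44555443-44555692, minus strand): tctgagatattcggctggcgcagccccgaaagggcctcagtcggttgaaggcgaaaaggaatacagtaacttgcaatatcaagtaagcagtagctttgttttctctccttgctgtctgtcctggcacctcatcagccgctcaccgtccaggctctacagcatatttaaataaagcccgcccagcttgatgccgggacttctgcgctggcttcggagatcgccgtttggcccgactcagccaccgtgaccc
Cycs (chr6:50566570-50566819, minus strand): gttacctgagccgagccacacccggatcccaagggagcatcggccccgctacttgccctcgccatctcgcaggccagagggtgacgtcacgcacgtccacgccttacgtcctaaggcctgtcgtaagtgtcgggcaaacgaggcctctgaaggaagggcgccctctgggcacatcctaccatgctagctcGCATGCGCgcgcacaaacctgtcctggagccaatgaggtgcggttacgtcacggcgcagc
Sdhb (chr4:140961021-140961270, plus strand): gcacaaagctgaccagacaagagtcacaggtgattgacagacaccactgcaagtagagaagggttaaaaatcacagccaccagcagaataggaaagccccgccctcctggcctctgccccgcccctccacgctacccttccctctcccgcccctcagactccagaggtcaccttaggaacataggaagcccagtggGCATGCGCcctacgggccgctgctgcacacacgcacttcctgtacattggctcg
Cox7a1 (chr7:30183921-30184170, plus strand): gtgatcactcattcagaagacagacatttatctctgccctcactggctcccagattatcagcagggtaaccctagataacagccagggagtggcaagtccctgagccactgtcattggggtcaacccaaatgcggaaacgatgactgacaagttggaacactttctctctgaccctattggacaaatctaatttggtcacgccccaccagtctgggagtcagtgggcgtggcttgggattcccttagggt
Cox7a2l (chr17:83514334-83514583, minus strand): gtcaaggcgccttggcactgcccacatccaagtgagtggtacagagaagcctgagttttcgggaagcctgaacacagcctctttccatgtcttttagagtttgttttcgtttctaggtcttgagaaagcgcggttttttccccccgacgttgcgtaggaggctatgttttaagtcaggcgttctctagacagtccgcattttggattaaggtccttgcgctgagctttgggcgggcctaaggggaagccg
Of these 5 stretches, those of Cycs and Sdhb hold the letters. This form of the NRF1 motif was chosen after the sequences had been seen, and none of the other motifs named below lies in the printed stretches.

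A window of 300 bases, from 250 before the start to 50 after it, was available for 54 of the 69 members and for 27025 genes in all. Searched on both strands, GCATGCGC was in 14.8% of the members' windows (8 of 54) and in 3.05% of all windows. These letters were chosen after the sequences had been seen. The windows of all genes were not matched to the members for GC content, so no conclusion on enrichment is drawn from these shares. Of 25 members with a window that rose in CD8 spleen 16% held GCATGCGC, and of 26 tested but not called there 15.4% did. The YY1 motif AAGATGGCG was in 9.26% of members and 1.64% of all genes, the ETS motif CCGGAAGT in 7.41% and 4.31%, the oestrogen-related receptor motif TCAAGGTCA in 1.85% and 0.466%, and the E-box CACGTG in 3.7% and 8.09%. A match describes the letters in this window and not a bound site.

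In splenic CD4 cells the same transplant comparison called 2 members, against 10.4% of all features called higher and 5.7% called lower. Cox5b rose: its levels were 5.25 and 4.86 on allogeneic and 4.45 and 4.53 on syngeneic arrays (0.57 ± 0.17, adjusted p = 0.0418). Cox6a2, the muscle isoform of a complex IV subunit, was -1.78 and -3.32 on allogeneic and 1.52 and 4.34 on syngeneic arrays, a fall of 5.48 ± 1.11 (adjusted p = 0.00608), with the lower allogeneic value not well above background. Both pairs were free of overlap, but the 2 syngeneic Cox6a2 values lay far apart. The median member difference was 0.10, beside 0.04 over all features, and 45 of 65 were positive (69.2%, against 52.6% of all features). The groups did not overlap for 9 members upward (28.2% of all features) and 4 downward (22.9%).

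Some markers of other cells were higher, and others lower, on the syngeneic CD4 arrays where Cox6a2 was high. Of 7 dendritic cell markers 5 to 6 were well above background there and 4 on the allogeneic CD4 arrays; Cd209a was at -1.87 and 1.46 against -5.81 and -4.62, and Flt3 at -2.06 and 1.08 against -3.76 and -4.69. The summed level of these 7 markers was 212.8 to 341.2 on syngeneic and 352.9 to 552.1 on allogeneic CD4 arrays, most of it from the single probe for Siglech, which was bright on every array that measured it. The B cell sum was 34.0 to 71.2 against 10.2 and 10.3, and the macrophage sum 25.7 to 42.7 against 62.0 to 91.8. Of 10 erythroid and platelet markers the sum was 18.6 to 45.8 against 3.22 to 16. The sum of 6 neutrophil markers was 51.8 on replicate 2 of the syngeneic CD4 cells, where Cox6a2 was highest, 1.42 on replicate 1 and 5.08 to 11.7 on allogeneic CD4 arrays. That of 9 striated muscle markers was 0.906 and 2.6 on the syngeneic and 1.21 and 1.002 on the allogeneic CD4 arrays. On syngeneic splenic CD8 arrays Cox6a2 read -1.22, -3.17 and 0.84, and the third of these arrays also had the highest CD8 values of Flt3 (1.92), Xcr1 (0.43) and the striated muscle sum (9.38, against 2.45 and 2.86 on the other two). The part of such cells in the Cox6a2 result was not tested.

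Among CD4 cells Ndufb9 (0.64 ± 0.25), Ndufa3 (0.64 ± 0.23) and Cox8a (0.63 ± 0.21, adjusted p = 0.0571) had larger differences than Cox5b. Their SEs were larger as well, and they did not pass. Cox7a2l differed by -0.48 ± 0.20 (adjusted p = 0.122), the 2 groups not overlapping, and its further probes gave -1.09 and -0.44. Ndufc2, Sdhd and Cox6c read -3.71, -3.67 and -3.06 with the dark patches in the fit and 0.29, 0.05 and 0.28 without them, none of them called in either fit. Replicate 2 of allogeneic splenic CD4 cells, the dimmest array, weighed heavily: without it 17 members rose and 5 fell and the median was 0.34. Array weights and a fit of only these groups called none (10 and 1 at an unadjusted p under 0.05), a replicate block or no filter on dim probes left 1, and normexp correction with quantile normalization gave 3 rises and 3 falls. On slide 1 alone 11 rose and 5 fell, and on slide 2 alone, which holds that array, none was called and 2 had an unadjusted p under 0.05. Without replicate 2 of the syngeneic CD4 cells none was called, and without any one of the other syngeneic CD4 array, the 4 ovarian CD8, the 3 syngeneic CD8 and replicate 2 of the allogeneic splenic CD8 arrays, 1 was.

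The difference between the transplant differences of CD8 and CD4 cells was tested directly as an interaction. Upward, with a larger rise in CD8 cells, 4 members differed (6.15%), and 1 downward (1.54%), against 5.27% and 6.67% of all features, so the upward share was near the background and the downward share below it. Ndufb8 rose by 0.88 in CD8 cells and differed by 0.16 in CD4 cells, an interaction of 0.72 ± 0.18 (adjusted p = 0.027). Cox7a1 gave 1.09 and 0.09 (interaction 0.996 ± 0.27, adjusted p = 0.036), Cycs 0.94 and 0.18 (0.76 ± 0.22, adjusted p = 0.0442) and Sdhb 0.89 and 0.03 (0.86 ± 0.25, adjusted p = 0.0453). Cox4i2 fell by 0.78 in CD8 cells against a difference of 0.27 in CD4 cells, which did not pass alone (interaction -1.05 ± 0.29, adjusted p = 0.0371).

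These interactions rest on few CD4 arrays. The median interaction over the members was 0.30, beside -0.10 over all features, and it was 0.04 without replicate 2 of the allogeneic splenic CD4 cells. With the dark patches left out, Ndufc2 also passed (0.72 ± 0.21, adjusted p = 0.0415). On slide 1 alone the median was 0.08 and on slide 2 alone 0.60. Fitting only the groups compared or leaving out the filter on dim probes called none (8 and 14 at an unadjusted p under 0.05), array weights called 1 and the mean of a gene's probes 3, whereas slide as a block and normexp correction with quantile normalization each called 8. The count of 5 fell to 0 without replicate 2 of the syngeneic CD4 or of the syngeneic CD8 cells and to 1 without replicate 1 of the syngeneic CD4 or replicate 2 of the allogeneic splenic CD8 cells. It was 2 or 3 without any one of the 6 ovarian arrays, without replicate 1 of the allogeneic splenic CD8 cells or without replicate 1 or 3 of the syngeneic CD8 cells. It was 15 without replicate 1 of the allogeneic splenic CD4 cells and 8 without replicate 3 of the allogeneic splenic CD8 cells.

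In the ovary, the organ whose infiltrating donor cells the series was made to describe, CD8 cells had higher levels than CD4 cells for most members. Of 65 members 17 were called higher and none lower, against 8.47% and 9.03% of all features. The difference was positive for 62 members (95.4%, against 54.4% of all features), with a median of 0.47 beside 0.07, and the CD8 arrays lay above every measured CD4 array for 59 members (27.8% of all features) and below for 1, Cox4i2 (20.2%). For 3 of the 59, Ndufa3, Ndufb11 and Ndufs7, the spot on replicate 1 of the ovarian CD4 cells was marked as an outlier and only 1 CD4 array was measured. Calls fell in complex I (9 of 35), complex III (2 of 9) and complex IV (5 of 16) and on Cycs, and none of the 4 complex II genes passed.

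Cox7a1 had the smallest p of the members in this comparison, at 0.74, 1.19, 0.76 and 1.22 on ovarian CD8 arrays and 0.10 and 0.13 on ovarian CD4 arrays (0.86 ± 0.18, adjusted p = 0.00833). Cox7a2 read 6.12, 6.18, 6.07 and 6.17 against 5.46 and 5.42 (0.69 ± 0.16, adjusted p = 0.0136), and Cycs 5.93, 5.94, 5.89 and 5.92 against 5.24 and 5.34 (0.63 ± 0.15, adjusted p = 0.0136). For all 3 genes every CD8 array lay above both CD4 arrays, and the CD8 values of Cox7a1 were the most spread of the 3. Ndufs3 and Ndufs7, complex I core subunits, were higher by 0.56 ± 0.14 and 0.81 ± 0.20 (the latter against 1 CD4 array, the other spot being marked as an outlier), and in the splenic CD8 transplant comparison they did not pass, at 0.17 ± 0.13 and 0.09 ± 0.14.

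The ovarian subset comparison shares no array with the transplant comparison in splenic CD8 cells, although both use the spread of all 16 arrays. Called higher in both were 11 members: Cox5a, Cox5b, Cox7a1, Cox7a2, Cycs, Ndufa4, Ndufb6, Ndufc1, Ndufs4, Ndufs6 and Uqcrfs1, which is 39.3% of the 28 called in CD8 spleen and 64.7% of the 17 called in the ovary. The 11 are 16.9% of the members tested. Of all features 4.79% were called higher in both, which is 25.5% of those called higher in CD8 spleen and 56.6% of those called higher in the ovary. Called higher in the ovarian subset comparison and not in the CD8 transplant comparison were Ndufa6, Ndufb4, Ndufb5, Ndufs3, Ndufs7 and Uqcrq. Cox4i2 was lower in ovarian CD8 cells, -1.28, -1.49, -1.37 and -1.39 against -0.78 and -0.95, but missed the threshold (-0.52 ± 0.19, adjusted p = 0.0865). Cox6a2 (-0.37 ± 0.96) and Cox6b2 (-0.13 ± 0.31) had the other negative differences.

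Brightness went with subset in this comparison: the 75th percentile was 133 and 68.2 on the ovarian CD4 arrays and 190 to 343 on the ovarian CD8 arrays. The summed level of 9 macrophage markers was 64.1 to 148.5 on ovarian CD4 and 10.1 to 11.4 on ovarian CD8 arrays, and that of 15 proliferation genes was 149.3 to 232.4 and 350.7 to 372.9. The part of each in the result was not tested. Leaving out the dark patches brought Ndufc2 past the threshold as well (0.43 ± 0.12, adjusted p = 0.0292). Without replicate 2 of the ovarian CD4 cells, the dimmer one, none of the members was called, and without replicate 1 10 were. Without replicate 1, 2 or 4 of the ovarian CD8 cells 5, 4 and 5 were called, and 10 without replicate 2 of the allogeneic splenic CD8 cells, which enters only through the shared spread. Leaving out one or the other allogeneic splenic CD4 array, 34 members came out higher and 1 lower. Quantile normalization gave 6 calls (median 0.27), normexp correction with it 7 (0.25), no filter on dim probes 3 and a replicate block 10, whereas array weights gave 28 and fitting only these groups 36. With slide as a block 27 were higher and 1 lower, on slide 1 alone 4 were higher, and on slide 2 alone none was called and 20 had an unadjusted p under 0.05.

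Among allogeneic splenic cells, 25 members were called higher in CD8 than in CD4 and 1 lower, against 15.2% and 14.3% of all features. The median was 0.42, beside -0.06, and 59 members were positive (90.8%, against 46.8% of all features). The groups did not overlap for 35 upward (23.3%) and 1 downward (26%). Cox7a1 read 0.33, 0.50 and 0.73 on CD8 and -0.64 and -0.91 on CD4 arrays (1.29 ± 0.19, adjusted p = 0.000713), and Cycs 5.72, 5.74 and 5.89 against 5.08 and 4.54 (0.98 ± 0.16, adjusted p = 0.00101). Ndufa10, an accessory subunit with a kinase-like fold, was higher by 1.61 ± 0.37 and Ndufb8 by 0.66 ± 0.13. Uqcrfs1 was higher by 0.85 ± 0.17, Ndufs8 by 0.88 ± 0.18 and Sdhb by 0.85 ± 0.18, and Cox4i2 was lower (-0.63 ± 0.21, adjusted p = 0.036). The negative differences of Cox6b2 (-0.70), a testis isoform, and Ndufa7 (-0.69) did not pass. That of Ndufa7 rested on a spot in a dark patch. The CD8 array with this spot read 3.21, the other CD8 arrays 5.67 and 5.71, and the CD4 arrays 5.78 and 5.33.

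The largest values of that comparison belonged to spots in the dark patch: Ndufc2 at 4.69, Sdhd at 4.59, Cox6c at 3.67 and Ndufb7 at 3.62. Without the patches these 4 were 0.69, 0.87, 0.34 and 0.59, of which Ndufc2 and Sdhd still passed, and 22 members were higher and 1 lower. Without the dimmest array, replicate 2 of the allogeneic splenic CD4 cells, calls numbered 11 higher and 3 lower with a median of 0.15, and without replicate 1 of the same group 45 were higher and 1 lower with a median of 0.69. Without replicate 1 or 2 of the allogeneic splenic CD8 cells 15 and 13 were higher. Fitting only these groups called none (11 at an unadjusted p under 0.05), array weights called 10, quantile normalization 12 (median 0.20) and no filter on dim probes 17. With slide as a block 28 were higher and 1 lower, on slide 1 alone 13 and 4, and on slide 2 alone none was called and 30 had an unadjusted p under 0.05. The 75th percentile was 141 and 67.6 on the CD4 and 189 to 450 on the CD8 arrays. The summed level of the macrophage markers was 62.0 to 91.8 and 6.22 to 7.66, and that of the proliferation genes 116.2 to 155.8 and 387.7 to 477.5, and their part in the result was not tested.

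After syngeneic transplantation 1 member was called between subsets. Cox6a2 was lower in CD8 cells by 4.12 ± 1.01 (adjusted p = 0.0398), against 2.88% of all features called lower and 1.27% higher, and this call was lost without any one of the 2 ovarian CD4 arrays, replicates 1, 2 and 4 of the ovarian CD8 cells, replicate 2 of the syngeneic CD4 cells, the 3 allogeneic splenic CD8 arrays and replicates 1 and 2 of the syngeneic CD8 cells. It was also lost with a replicate block, without the filter on dim probes, without the 2 dimmest arrays, on slide 2 alone and in a fit of only these groups. The median was 0.12, beside 0.10 over all features, and 55 members were positive (84.6%, against 63.3%). The groups did not overlap for 20 upward (21.8%) and 2 downward (12.6%). Differences of Sdha (0.42), Cox4i2 (0.41), Ndufa10 (0.33), Ndufa11 (-0.14) and Ndufa7 (-0.09) were the next largest in each direction, and none passed.

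**Figure D5:**
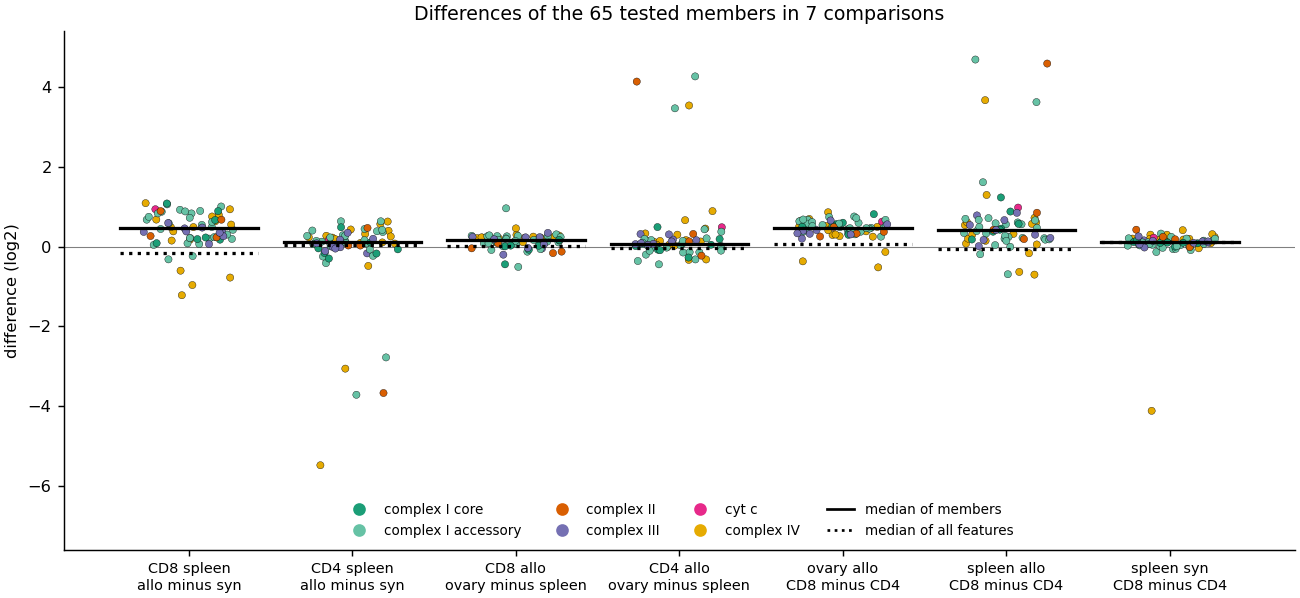
Difference in log2 level of each of the 65 tested members in 7 comparisons, coloured by complex, with the median of the members (solid bar) and of all 22835 features (dotted bar). The members' median is 0.46 in CD8 spleen after transplantation, 0.47 and 0.42 for CD8 minus CD4 in allogeneic ovary and spleen, and 0.10 and 0.07 where CD4 arrays alone are compared across transplants and organs.

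Few differences between ovary and spleen passed after allogeneic transplantation. In CD8 cells limma called none of the 65 members, 4 had an unadjusted p under 0.05 (8.31% of all features), and 0.53% of all features were called. With array weights 23 members were called higher and 2 lower. The difference was positive for 53 members (81.5%, against 54% of all features), with a median of 0.17 beside 0.03, and ovarian arrays lay wholly above splenic ones for 15 members (7.37% of all features) and wholly below for 1 (5.32%), Uqcrfs1. Cox7a1 was 0.74 to 1.22 in the ovary and 0.33, 0.50 and 0.73 in the spleen (0.46 ± 0.16, adjusted p = 0.397), and Uqcr11 differed by 0.34 ± 0.14. The largest value, 0.96 for Ndufa7, rested on a spot in a dark patch and was 0.14 without it, and Ndufa10 (-0.51 ± 0.31) was the most negative. The summed level of 8 oocyte markers was at most 0.943 on any array, and that of 8 granulosa cell markers was 19.4 to 23.0 on ovarian and 19.9 to 21.3 on allogeneic splenic CD8 arrays. Well above background were 3 to 7 granulosa cell markers on the ovarian and 2 to 3 on the splenic arrays. Of 8 steroidogenic (theca and luteal cell) markers, 6 to 7 were well above background on the ovarian and 4 on the splenic arrays. Their sums overlapped, at 27.8 to 34.2 and 16.4 to 36.7. On the same arrays the sum of 8 stromal markers was 1.33 to 2.51 against 0.841 to 1.07. The macrophage sum was 10.1 to 11.4 against 6.22 to 7.66, and the B cell sum 2.00 to 3.29 against 3.69 to 5.69. The part of such cells in the organ difference was not tested.

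In CD4 cells limma again called no member between ovary and spleen, 9 had an unadjusted p under 0.05 (15.7% of all features), and 0.907% of all features were called. The difference was positive for 47 members (72.3%, against 46.1% of all features), and the groups did not overlap for 12 upward (15.7%) and 2 downward (18%). Cox7a1 came nearest, at 0.10 and 0.13 in the ovary and -0.64 and -0.91 in the spleen (0.89 ± 0.21, adjusted p = 0.0767), followed by Cycs at 0.49 ± 0.17. Ndufc2, Sdhd and Cox6c stood at 4.27, 4.14 and 3.54 with the dark patch in the fit and at 0.26, 0.42 and 0.20 without it, while Ndufb11 (-0.44), Ndufb3 (-0.36) and Cox7a2l (-0.33) were the most negative. The ovarian value of Ndufb11 rests on 1 array, the dimmer replicate 2, as does that of Ndufs7, 1 of the 2 downward members. The median was 0.07, beside -0.04 over all features. The granulosa cell sum was 31.4 to 31.9 in ovary and 24.5 to 26.9 in spleen and that of 8 stromal markers 1.40 to 8.75 and 1.77 to 2.29, and their part was not tested. Without replicate 2 of the allogeneic splenic CD4 cells 4 members were higher and 7 lower, and without replicate 1 of that group 1 was higher. Quantile normalization called 1, and slide 1 alone 4. The organ difference was compared between CD8 and CD4 cells as well: limma called no member and no feature at all (0%), with 11.1% of features at an unadjusted p under 0.05, and without replicate 2 of the allogeneic splenic CD4 cells 11 members were called.

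Read over all 6 groups, the paralogues followed different orders. Mean levels of Cox7a1 were 0.98 in ovarian CD8 cells, 0.52 in allogeneic and -0.57 in syngeneic splenic CD8 cells, and 0.12, -0.77 and -0.87 in the corresponding CD4 groups. Cox7a2l ran from 8.30 in syngeneic CD8 and 7.99 in syngeneic CD4 cells down to 7.47 in ovarian CD8, 7.34 in allogeneic splenic CD8 and 7.17 in ovarian CD4 cells, with allogeneic splenic CD4 cells at 7.51 from arrays at 7.90 and 7.12. Of the widely expressed isoforms, Cox4i1, Cox6a1, Cox7b and Cox8a had no call in the CD8 minus CD4 comparisons, whereas Cox7a2 was called higher in ovarian CD8 cells. Cox6b2 was called in no comparison.

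Further probes, 20 in all, were available for 16 members. Beside the calls of these genes, 24 such values were available, all 24 had the sign of the reported probe, and 14 had an unadjusted p under 0.05. Of these 24, the value farthest from its call was for Cox7c, where the probe in the dark patch gave 0.72 between allogeneic splenic subsets and the others 0.04 and 0.43. For the probe in the patch, the affected CD4 array read 4.96 and the other CD4 array 5.30, against 5.68, 5.79 and 6.08 on the CD8 arrays. Outside calls the probes could disagree in sign: for Cox7a2l in the same comparison they gave -0.17, 0.68 and -0.15.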

How the data were processed

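Amplified RNA of sorted donor T cells was hybridised to 16 one-colour Agilent arrays. Per the file headers, the scanner output was made with Agilent Feature Extraction 11.5.1.1 and the deposited intensity is its processed signal, after background subtraction. The authors' deposited log2 values in the series matrix were centred per probe, as a comparison with the scanner values showed, and served as an alternative (column medians from -0.341 to 0.491).

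Here log2 of the processed signal minus the array's 75th percentile over non-control spots was used. Spots flagged as outliers were left out, and spots of a probe were averaged. Of 55681 probes, 27656 matched 1 symbol in RefSeq GRCm38.p6 and 28025 matched none. Probes that the scanner called well above background on all arrays of 1 or more groups were kept (31120), and the one with the highest mean over the 16 arrays was taken per gene, giving 22835 features of which 13696 were named. One mean per group was fitted over all 16 arrays with limma 3.58.1 in R 4.3.3 (10 residual degrees of freedom), with Benjamini-Hochberg adjustment over all features and calls at an adjusted p under 0.05. The script was tested on simulated data. The results of 1 member are in the counts and medians but are not reported here by name. The number of arrays limits the precision. Members, lists and tests were chosen with earlier results of these data known. Named were called members (at most the 12 with the smallest p in full per comparison and direction), the 3 largest differences either way, paralogue sets, core subunits, and up to 4 called genes of each other list. Alternatives covered normalization, background, filter, probe choice, slide, replicate number, array weights, spread, samples in the fit and each array left out. Leaving out dark patches was added after seeing the data.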

Additional observations from a re-analysis of the deposited data

Results flagged for a closer look

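An ovarian CD8 array stood apart from the other 3 of its group for 7 members by Dixon's criterion, which by chance flags about 1 in 20 groups, and 65 members were examined. The members share these arrays, so their flags are not independent of each other. Replicate 3, the dimmest array of its group (75th percentile 190, against 311 to 343), was the array in 6 of the 7. It was low for Ndufa4 (5.44 against 5.66 to 5.69), Ndufb8 (5.84 against 5.97 to 5.99), Ndufs6 (6.92 against 7.05 to 7.06) and Ndufv1 (4.68 against 4.96 to 4.98). The same array was high for Ndufb11 (7.12 against 7.05 to 7.06) and Uqcrq (7.27 against 7.14 to 7.16). Replicate 4 was high for Cox5a (7.79 against 7.73). The part of brightness in these flags was not tested.

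For 5 members the test of the interaction found a transplant difference in the spleen that was unequal in CD8 and CD4 cells, 4 upward (6.15%, against 5.27% of all features) and 1 downward (1.54%, against 6.67%). None was called without replicate 2 of the syngeneic CD4 or of the syngeneic CD8 cells (limma, adjusted p under 0.05; 12 and 10 at an unadjusted p under 0.05). The CD8 difference exceeded the CD4 difference by 0.996 for Cox7a1, 0.72 for Ndufb8, 0.76 for Cycs and 0.86 for Sdhb on the log2 scale, and for Cox4i2 the interaction was -1.05.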

How the results depend on the processing

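Counts are of members called and medians of member differences (log2). Under quantile normalization 1 was called for CD4 ovary minus spleen, 6 for ovarian CD8 minus CD4 (median 0.267) and 12 for allogeneic splenic CD8 minus CD4 (0.204), and the syngeneic subset median was -0.035. Normexp correction with quantile normalization gave 6 for the CD4 transplant comparison, 7 for ovarian subsets (0.252), a median of 0.173 for allogeneic splenic subsets and -0.032 for syngeneic ones, and 8 for the transplant interaction. Under it, in allogeneic splenic CD8 minus CD4, Uqcrc2 (-0.0095), Ndufa4 (-0.0366) and Ndufb5 (-0.0401) reversed, and the cause was not tested. Without a filter on dim probes 1, 3, 17, 0 and 0 were called for the CD4 transplant, ovarian, allogeneic splenic and syngeneic subset comparisons and the interaction (1 and 14 at an unadjusted p under 0.05 for the last 2). With probes above background on all 16 arrays the syngeneic count was 0 (1 unadjusted), and averaging a gene's probes gave an interaction count of 3.

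Slide as a block gave 28 for ovarian subsets and 8 for the interaction. Slide 1 alone gave 4 for CD4 ovary minus spleen, 16 for the CD4 transplant comparison (0.279), 4 for ovarian subsets, 17 for allogeneic splenic subsets (0.121), 4 for the organ interaction (0.223) and an interaction median for transplant of 0.081. Slide 2 alone called 0 in the CD8 transplant (26 unadjusted), CD4 transplant (2; median -0.032), ovarian (20), allogeneic splenic (30; 0.743), syngeneic (1) and transplant interaction (6; 0.605) results, with medians of 0.264 for CD4 ovary minus spleen and -0.191 for the organ interaction. A replicate block gave 1 for the CD4 transplant comparison, 10 for ovarian subsets and 0 for syngeneic subsets (1 unadjusted). Same-numbered arrays correlated from -0.44 to 0.05 in their deviations where they lay on different slides, and from -0.271 to 0.454 on the same slide. These values mix slide with replicate number, so they cannot show whether the numbers pair samples. The reported fit assumed no pairing. Array weights gave 25 for CD8 ovary minus spleen, 0 for the CD4 transplant comparison (10 unadjusted), 28 for ovarian subsets, 10 for allogeneic splenic subsets and 1 for the interaction.

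Fitting only the groups compared gave 0 for the CD4 transplant (1 unadjusted), allogeneic splenic (11), syngeneic (1) and interaction (8) results and 36 for ovarian subsets. Without the 2 dimmest arrays counts were 5 for CD4 ovary minus spleen, 23 for the CD4 transplant comparison (0.342), 6 for ovarian, 14 for allogeneic splenic (0.148) and 0 for syngeneic subsets, and 5 for the organ interaction, and the transplant interaction median was 0.044. The causes were not tested.

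Leaving out each array in turn gave 0 to 0 members called (medians 0.122 to 0.239) for CD8 ovary minus spleen, 0 to 11 (-0.146 to 0.352) for CD4 ovary minus spleen, 21 to 41 (0.343 to 0.506) for the CD8 and 0 to 22 (-0.066 to 0.342) for the CD4 transplant comparison, 0 to 35 (0.345 to 0.576) for ovarian, 13 to 46 (0.148 to 0.692) for allogeneic splenic and 0 to 1 (0.055 to 0.152) for syngeneic subsets, 0 to 11 (-0.181 to 0.311) for the organ and 0 to 15 (0.044 to 0.591) for the transplant interaction. A lone array left in its group was taken to have the spread of the other groups. The 2 dimmest arrays, at 41.8% and 43.1% of spots well above background, limit the CD4 comparisons.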
